A study of Rattus norvegicus with 12 samples.

Results

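The genes of the VEGF system and of its hypoxia factors were measured in the cervix of pregnant and non-pregnant rats, with and without macrophages (Mφs). The set held 10 genes of the 26612 gene names on the array: the ligands Vegfa, Vegfb, Vegfc and Pgf, the receptors Flt1, Kdr and Flt4, the co-receptor Nrp1, and the oxygen-regulated transcription factors Hif1a and Epas1. Members were the probes whose gene name in the scanner files equalled 1 of these symbols, which gave 15 of 30367 probes. RNA came from cells dispersed with collagenase from the cervix of 12 adult female Sprague Dawley rats, 3 in each of 4 groups, after blood had been flushed through the heart with saline. Pregnant rats were taken on day 21 after breeding (D21), usually the day before birth, and non-pregnant (NP) rats in proestrus. The whole cervix groups were the dispersed cells of D21 rats 5, 6 and 7 and of NP rats 8, 9 and 10. In the depleted groups, D21 rats 1, 2 and 4 and NP rats 5, 6 and 7, cells that bound the Mφ-specific ED1 antibody had been drawn off with magnetic beads. No rat gave more than 1 array, so the D21 and NP rats that share a number are different animals. The depleted cells also had antibody, wash and magnet steps that whole cervix cells did not have, and loss of ED1 cells and these steps cannot be told apart in this design.

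VEGF ligands are secreted proteins that drive the growth and the leakiness of vessels. Vegfa protein binds the endothelial receptors Kdr, which carries most of the growth signal, and Flt1, which binds it tightly and signals weakly; Pgf and Vegfb proteins bind Flt1 and not Kdr. Vegfc protein acts mainly through Flt4 on lymphatic endothelium, and Nrp1 assists Kdr as a co-receptor. Hif1a and Epas1 encode the oxygen-labile subunits of the hypoxia-inducible factors, which pair with Arnt and switch on genes such as Vegfa when oxygen is low. Both are controlled to a large extent at the protein level, so that their mRNA is not a measure of their activity. In the cervix before birth, changes of the vessels accompany the softening of the tissue.

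Each probe is a 60-base oligonucleotide, and the probes of a gene were numbered by their start in the rat genome build that the files use, rn4. Vegfa had 4 probes, Pgf and Flt4 had 2 each, and the other genes had 1. The sequences shown belong to probes that bear on the results, because probes of Vegfa and of Pgf gave unlike values and because Epas1 and Flt1 were called. They are written 5′ to 3′ as in the array files.
Vegfa probe 2: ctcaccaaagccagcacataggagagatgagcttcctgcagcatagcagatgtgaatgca
Vegfa probe 3: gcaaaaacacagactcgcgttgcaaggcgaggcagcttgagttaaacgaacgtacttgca
Pgf probe 2: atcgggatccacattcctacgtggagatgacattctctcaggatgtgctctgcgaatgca
Flt1 probe: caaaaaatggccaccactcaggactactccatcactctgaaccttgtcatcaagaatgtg
Epas1 probe: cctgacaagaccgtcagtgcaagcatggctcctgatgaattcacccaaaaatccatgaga
In rn4, Vegfa probes 2, 3 and 4 lie on the plus strand at chr9:10528551-10528610, chr9:10531972-10532031 and chr9:10535933-10535992. Pgf probe 1 lies on the minus strand at chr6:109215543-109215602 and probe 2 at chr6:109220045-109220104. The Flt1 probe lies on the plus strand at chr12:7957094-7957153. The 60 bases of the Epas1 probe are spread over chr6:10295169-10295420, a span of 252 bases on the plus strand. No exon or intron annotation of this build was used here. The brightest probe of each gene over the 12 arrays stood for the gene, which was probe 4 for Vegfa, probe 1 for Pgf and probe 2 for Flt4. The other probes are given beside it.

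The hypoxia-inducible factors bind DNA at a short core that reads ACGTG or GCGTG. In the 250 bases before each start site in RefSeq (build GRCr8), all 10 members had an entry, with 11 windows in all because Vegfa had 2. ACGTG, on either strand, was found in 1 of the 11 windows, that of Hif1a, and in 16.6% of the 33469 windows of that length in the reference. GCGTG was found in 5 of the 11 windows, those of Vegfb, Pgf, Flt1, Kdr and Nrp1, and in 25.9% of all windows. The window of Pgf, the member with the called difference between the depletion comparisons, is shown with its GCGTG core, here on the opposite strand, in capitals. It lies on the minus strand at chr6:110557748-110557997.
Pgf window: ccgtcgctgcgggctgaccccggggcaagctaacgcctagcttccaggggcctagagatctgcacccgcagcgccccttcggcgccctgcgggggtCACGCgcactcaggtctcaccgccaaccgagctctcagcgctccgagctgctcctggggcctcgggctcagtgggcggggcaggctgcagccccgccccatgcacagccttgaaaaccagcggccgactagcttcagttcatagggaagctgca
A match is a description of the letters and shows no binding, and neither window of Vegfa held a core. The second Vegfa window lay wholly inside the annotated gene, as did those of Flt1, Hif1a and Epas1. Sequence beyond the 250 bases was not searched, so a window without a core does not show that a gene lacks one.

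A level is given as log2 of the intensity relative to the 75th percentile of its array, so that 0 stands for the intensity which 75% of that array's probes do not exceed. Levels of different probes are not compared. Between 44.9% and 61.7% of probes were well above background, the scanner software's call that a spot stands clear of its local background. There were 4 slides and 3 scan days, and the 6 whole cervix arrays shared 1 scan day with 1 depleted array of each kind. Of Mφ marker genes, 11 of 13 tested were higher in whole than in depleted cervix at D21 and 10 of 11 in NP. Cd68 was among the markers that did not differ past the threshold at D21 (log2 difference -0.14, limma adjusted p = 0.882). The markers' summed level, on the linear scale, was 74.9 to 80.3 in D21 whole cervix and 5.42 to 8.30 in D21 depleted cervix, and 67.3 to 103 and 2.75 to 3.18 in NP. Other cell types moved with depletion too. Of 10 fibroblast markers tested, 4 were higher in whole than in depleted cervix at D21 and 10 in NP. Of 9 smooth muscle markers 6 and 9 were higher. Epithelial markers went mostly the other way. Of 9 tested, 1 was higher and 3 were lower in whole cervix at D21, and in NP 0 were higher and 6 lower. At the threshold given below, 11.9% of all genes tested were higher and 10.5% lower at D21, and 17% and 15.8% in NP. Of immediate-early genes, which respond within minutes to handling of cells, 10 of 11 tested at D21 and 9 of 10 in NP were lower in whole than in depleted cervix. In these bulk samples, fewer cells of a type and less RNA per cell cannot be told apart.

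**Figure D1:**
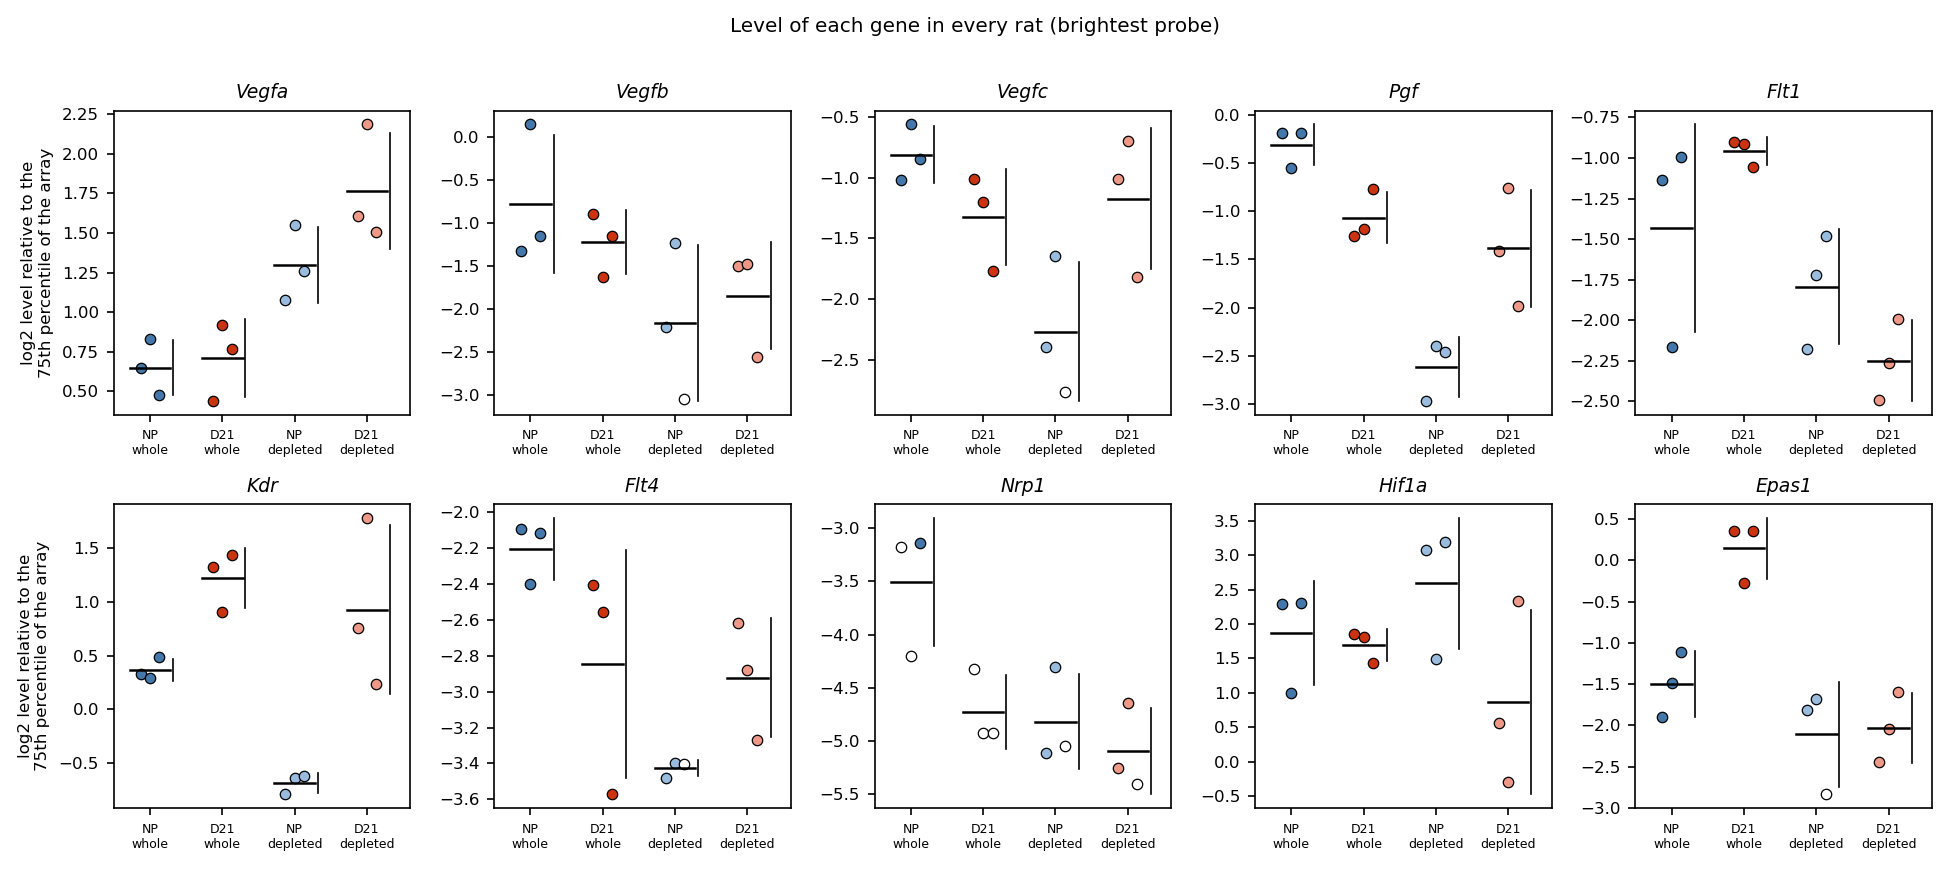
Level of each of the 10 genes at its brightest probe in every rat, on the log2 scale relative to each array's 75th percentile (y axes differ between panels). Points are rats, ordered by rat number within a group, and open points are arrays where it was not clear of background. Horizontal lines are group means and vertical lines 1 SD either side of the mean (n = 3). Epas1 in D21 whole cervix, Kdr in NP depleted cervix and Pgf in both NP groups stand apart from every other group. So do Flt4 (narrowly) and Nrp1 in NP whole cervix, where Nrp1 cleared background on 1 array.

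Genes were called at an adjusted p under 0.05, from limma with Benjamini-Hochberg adjustment over all genes tested in a comparison. For a gene to be tested, its probe had to clear background on all 3 arrays of a group in the comparison, and 9 of the 10 members were tested in every comparison; Nrp1 was not tested in any. Between D21 and NP whole cervix, 1 of the 9 was called, Epas1, which was higher at D21, against 5.82% of 14056 genes (3.92% higher and 1.9% lower). Between D21 whole and depleted cervix, 3 of 9 were called, Epas1 and Flt1 higher and Vegfa lower in whole cervix, against 22.4% of 14256 genes (11.9% higher and 10.5% lower). Between NP whole and depleted cervix, 4 of 9 were called, Pgf, Vegfc, Flt4 and Kdr, all higher in whole cervix, against 32.8% of 13409 genes (17% higher and 15.8% lower). Between D21 and NP depleted cervix, 2 of 9 were called, Kdr and Pgf, both higher at D21, against 4.59% of 13406 genes (3.62% higher and 0.97% lower). Pgf was the single member called for the difference between the depletion values of D21 and NP, against 2.39% of 14565 genes (0.439% higher and 1.95% lower). At the study's threshold, an unadjusted p under 0.01 with at least a 2-fold difference, the same fit gave 1, 3, 4, 2 and 2 members in that order, against 8.49%, 17.7%, 24.4%, 7.5% and 7.44% of genes.

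The 3 rats of D21 and the 3 of NP did not overlap for 4 of the 9 tested members in whole cervix, where 44.2% of all genes tested did not overlap, and for 3 of 9 in depleted cervix, where 17% did not. Whole and depleted cervix did not overlap for 3 of 9 members at D21 (44.4% of genes) and for 5 of 9 in NP (46.9%). The median difference of the tested members was -0.17 in whole cervix between D21 and NP, where that of all genes was -0.08. It was 0.32 against -0.06 for whole minus depleted cervix at D21, 1.06 against -0.04 for the same in NP, and 0.47 against 0.02 for D21 minus NP in depleted cervix. Under normexp, another background correction, the call of Pgf between NP whole and depleted cervix was the single call left of the 11, and with the slide as a block no member was called between D21 and NP whole cervix or between D21 whole and depleted cervix. The share of all genes called under these settings was not taken. Comparisons that share a group are not independent: each whole and each depleted group stands in a pregnancy comparison and in a depletion comparison.

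**Figure D2:**
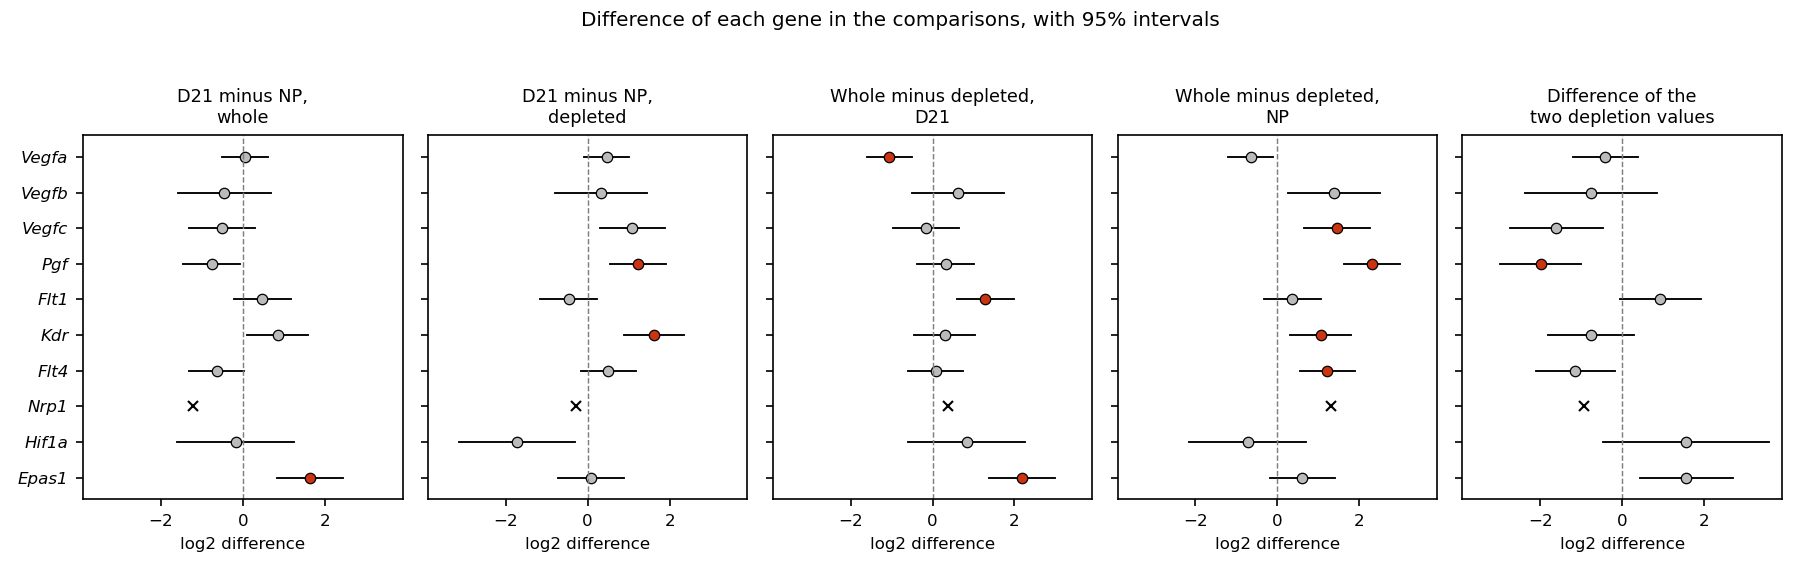
Log2 difference of each gene (x axis) in the 4 comparisons and in the difference between the depletion values of D21 and NP, at the gene's brightest probe. Circles are differences with 95% intervals from limma over 12 arrays, red where the adjusted p was under 0.05 and grey otherwise. Crosses mark Nrp1, which was not tested. The intervals of Pgf differ in place between the D21 and NP depletion panels (0.32 and 2.31).

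Among the ligands, Vegfa was the member whose mRNA was lower in whole than in depleted cervix. At probe 4 its level was 0.65, 0.83 and 0.48 in the NP whole rats 8, 9 and 10, and 0.44, 0.92 and 0.77 in the D21 whole rats 5, 6 and 7. In the depleted groups it was 1.08, 1.55 and 1.26 in NP rats 5, 6 and 7, and 1.60, 2.19 and 1.51 in D21 rats 1, 2 and 4. The whole groups overlapped each other, and every depleted rat lay above every whole rat. At D21 the level was lower in whole than in depleted cervix by 2.08-fold, a log2 difference of -1.06 (SE 0.25, adjusted p = 0.0167). In NP the difference was -0.65 (SE 0.25) and missed the threshold (adjusted p = 0.0694). Between D21 and NP it was 0.06 in whole cervix (95% interval -0.50 to 0.61) and 0.47 in depleted cervix (-0.08 to 1.02), and neither passed the test. The D21 call was lost without D21 depleted rat 2, D21 whole rat 5 or D21 whole rat 7, where differences ran from -1.08 to -0.84 and adjusted p from 0.0572 to 0.0706. It was also lost with the scan day as a block (-0.97, adjusted p = 0.0905) and with the slide as a block (-0.71, adjusted p = 0.694). Within the scan day that held both groups (3 whole arrays and 1 depleted), the difference was -0.80.

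The 4 Vegfa probes gave different values. Fitted with every probe as its own feature, probe 2 resembled probe 4 at D21, with a difference of -0.91 between whole and depleted cervix (SE 0.25, adjusted p = 0.0268). Its levels were 1.16, 1.15 and 0.72 in the D21 depleted rats and at most 0.38 in the other 9 rats. Probes 1 and 3 gave 0.14 and 0.37 in the same comparison, with adjusted p of 0.777 and 0.488. Between D21 and NP whole cervix, probes 2, 3 and 4 gave 0.33, 0.33 and 0.06 and were not called. Probe 1 gave 1.25 (SE 0.33, adjusted p = 0.0484), a value that rests on 2 of 3 NP whole arrays not well above background, so that its size is uncertain. Its levels were -2.77, -3.02 and -1.75 in NP whole cervix, with rats 8 and 9 not well above background, and -1.22, -1.08 and -1.47 in D21 whole cervix. With the mean of the 4 probes in place of the brightest, the D21 depletion difference of Vegfa was -0.36 (adjusted p = 0.253).

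**Figure D3:**
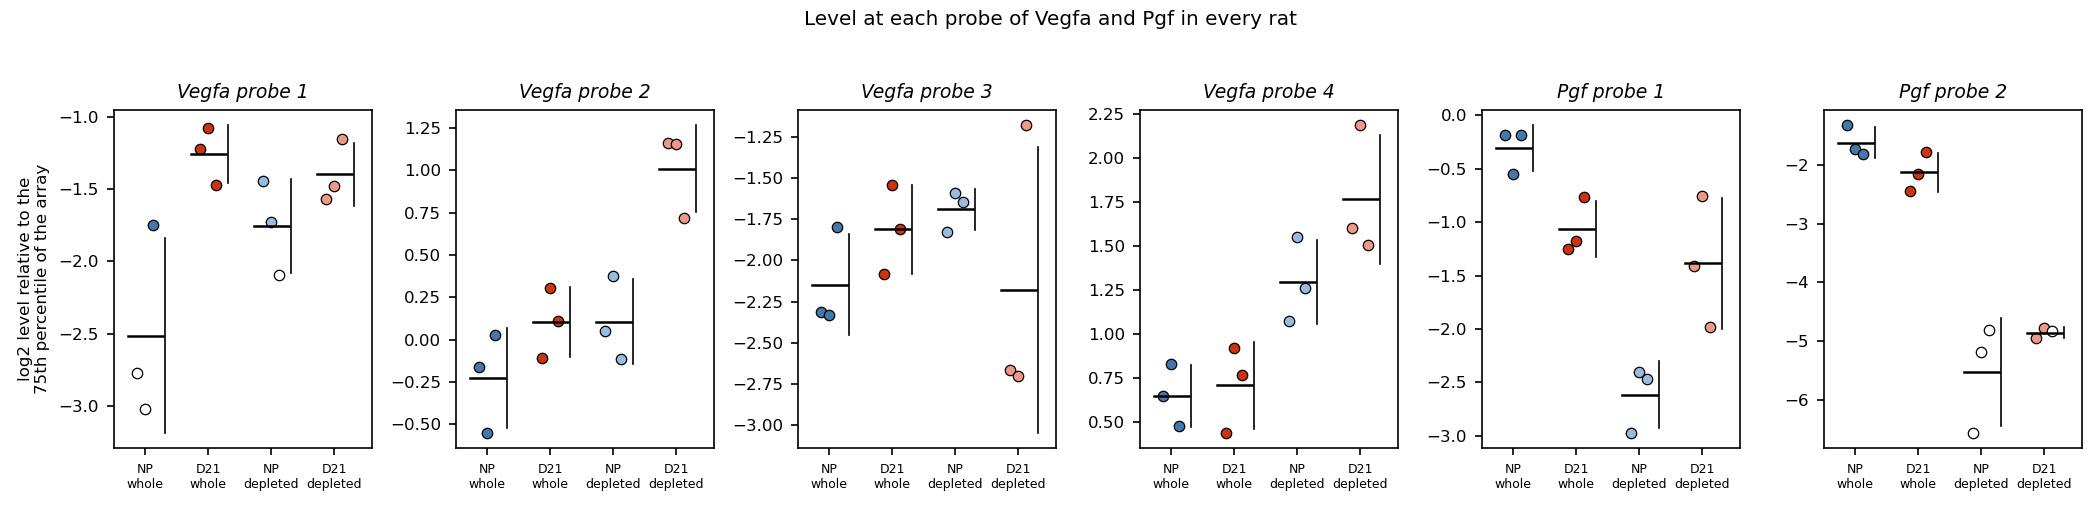
Level in every rat at each of the 4 Vegfa probes and both Pgf probes, on the log2 scale relative to each array's 75th percentile (y axes differ between panels). Points are rats, open where not clear of background, horizontal lines are group means and vertical lines 1 SD either side (n = 3). D21 depleted cervix is high at Vegfa probes 2 and 4 and low for 2 of 3 rats at probe 3, and both depleted groups are low at Pgf probe 2.

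Pgf, the placental growth factor, had the largest depletion difference of the members at the probes used for them, in NP rats. At probe 1 its level was -0.18, -0.55 and -0.19 in NP whole rats 8, 9 and 10 and -2.97, -2.40 and -2.47 in NP depleted rats 5, 6 and 7. The level was 4.95-fold higher in whole cervix (log2 difference 2.31, SE 0.31, adjusted p = 2.5e-04), and this call held under all 29 alternative settings, with differences from 1.50 to 3.11. At D21 the levels were -1.25, -1.18 and -0.77 in whole rats 5, 6 and 7 and -1.41, -0.76 and -1.98 in depleted rats 1, 2 and 4. These groups overlapped, and the difference of 0.32 (SE 0.32, 95% interval -0.38 to 1.01) did not pass the test. The difference between the depletion values was -1.99 (SE 0.45, adjusted p = 0.0444), and within the shared scan day (3 arrays against 1 each) the depletion value was 0.92 at D21 and 2.16 in NP. In whole cervix Pgf was lower in every D21 rat than in every NP rat, by a log2 difference of -0.76 that missed the threshold (SE 0.32, adjusted p = 0.182) and passed it when the fit held only the arrays compared (adjusted p = 0.0466). In depleted cervix it was higher in every D21 rat, 2.34-fold (1.23, SE 0.31, adjusted p = 0.0499).

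At probe 2 Pgf was higher in whole cervix at D21 as well. Levels there were -2.44, -2.16 and -1.78 in D21 whole cervix and -4.96, -4.79 and -4.83 in D21 depleted cervix, of which rat 4 was not well above background. The difference was 2.73 (SE 0.39, adjusted p = 0.0012). In NP the whole rats stood at -1.33, -1.72 and -1.82 and none of the depleted arrays was well above background. Against the lowest signal detected on those arrays, NP whole cervix had a level at least 6.94-fold higher (adjusted p of the fit 3.1e-05). Because no NP depleted array cleared background at probe 2, the NP depletion value there is a bound. The fit of probe 2 gave a difference between the depletion values of -1.17 (SE 0.56), which was not called (adjusted p = 0.278). For the same reason the size of that difference is uncertain. At probe 1 the call of the difference between the depletion values was lost under 5 other settings (-2.19 to -1.58, adjusted p 0.0571 to 0.19). It was also lost on leaving out any rat other than D21 depleted rat 4 (-2.14 to -1.68, adjusted p 0.0516 to 0.121). The call of the 2.34-fold difference in depleted cervix was likewise lost on leaving out any rat other than D21 depleted rat 4 (0.92 to 1.34, adjusted p 0.0539 to 0.195) and under 13 other settings, and within slides that difference was 1.93 on slide 1 (1 array against 2) and 0.49 on slide 2 (1 against 1).

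Vegfc, the ligand of lymphatic endothelium, was higher in whole than in depleted cervix of NP rats. Vegfc was at -1.02, -0.56 and -0.85 in NP whole cervix and -2.39, -1.64 and -2.77 in NP depleted cervix, where rat 7 was not well above background. The groups did not overlap, and Vegfc was 2.75-fold higher in whole cervix (1.46, SE 0.36, adjusted p = 0.0103). The call was lost with normexp (0.76, adjusted p = 0.149). It was also lost in the study's own test (unadjusted p = 0.0335, adjusted p = 0.126). With every compared array required to clear background, Vegfc was not tested in NP. At D21 Vegfc was -1.01, -1.20 and -1.77 in whole and -1.01, -0.70 and -1.82 in depleted cervix, with a difference of -0.15 (95% interval -0.95 to 0.65). The difference between the depletion values was -1.61 (SE 0.52) and was not called (adjusted p = 0.133). Without D21 depleted rat 4 it was -1.93 and was called (adjusted p = 0.0251), as was the difference between D21 and NP depleted cervix (1.42, adjusted p = 0.0209, against 1.09 and 0.12 with all rats). Vegfb, a ligand of Flt1, stood at -1.32, 0.15 and -1.14 in NP whole, at -0.89, -1.62 and -1.14 in D21 whole, -2.20, -1.23 and -3.04 in NP depleted and -1.49, -1.47 and -2.55 in D21 depleted cervix. Neighbouring groups overlapped throughout, and no difference of Vegfb was called. Its NP depletion difference of 1.39 (SE 0.51, adjusted p = 0.0585) was called with the slide as a block (2.39, adjusted p = 0.0213) and without NP depleted rat 6 (1.85, adjusted p = 0.0223) or D21 depleted rat 4 (1.39, adjusted p = 0.0447).

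Among the receptors, Kdr had a higher level in every D21 rat than in every NP rat of the same preparation. Its level was 0.33, 0.29 and 0.48 in NP whole rats 8, 9 and 10 and 1.33, 0.90 and 1.44 in D21 whole rats 5, 6 and 7. In depleted cervix it was -0.79, -0.64 and -0.62 in NP rats 5, 6 and 7 and 0.76, 1.78 and 0.24 in D21 rats 1, 2 and 4. NP depleted cervix lay below all other groups, and D21 depleted cervix overlapped with both whole groups. The D21 level was 3.06-fold that of NP in depleted cervix (1.61, SE 0.34, adjusted p = 0.0206). In whole cervix the difference was 0.85 (SE 0.34) and missed the threshold (adjusted p = 0.165). In an exact permutation test of D21 against NP within whole and depleted cervix (400 splits, two-sided), the mean difference of 1.23 gave p = 0.005, the smallest p that the splits allow, and 0.05 after adjustment over the 20 tests run. In NP, Kdr was 2.08-fold higher in whole than in depleted cervix (1.06, SE 0.34, adjusted p = 0.033), and at D21 the difference was 0.30 (95% interval -0.45 to 1.04).

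The Kdr calls were not firm against the loss of single rats. The NP depletion call was lost without any 1 of the 6 NP rats, with differences from 1.00 to 1.09 and adjusted p from 0.0608 to 0.0927. It was also lost with the slide as a block (1.40, adjusted p = 0.0597), with no background filter (adjusted p = 0.0992) and with normexp (1.02, adjusted p = 0.0792). The call between the depleted groups was lost without NP depleted rat 5 or 6 or D21 depleted rat 1 (1.56 to 1.70, adjusted p 0.0553 to 0.0843), and with only the arrays compared in the fit (adjusted p = 0.14) or no background filter (adjusted p = 0.0831). Within slides, the difference between D21 and NP depleted cervix was 2.50 on slide 1 (1 array against 2) and 0.86 on slide 2 (1 against 1). In whole cervix Kdr was called when the fit held only the arrays compared (0.85, adjusted p = 0.0307), with array weights (0.91, adjusted p = 0.022) and without D21 depleted rat 2 (0.85, adjusted p = 0.0498).

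Flt1, the high-affinity receptor, was higher in whole than in depleted cervix at D21. Its level was -0.90, -0.92 and -1.06 in D21 whole rats 5, 6 and 7 and -2.49, -2.26 and -1.99 in D21 depleted rats 1, 2 and 4. The groups did not overlap, and the level was 2.45-fold higher in whole cervix (1.29, SE 0.32, adjusted p = 0.0187). In NP it was -1.14, -2.17 and -0.99 in whole and -2.18, -1.72 and -1.48 in depleted cervix. These overlapped, with a difference of 0.36 (95% interval -0.34 to 1.06). The difference between the depletion values, 0.93 (SE 0.45), was not called (adjusted p = 0.295). Between D21 and NP, Flt1 differed by 0.47 in whole and -0.46 in depleted cervix, and neither passed the test (adjusted p 0.404 and 0.417). The D21 depletion call was lost without D21 depleted rat 1 or 2 or any of the 3 D21 whole rats (1.17 to 1.34, adjusted p 0.0562 to 0.0777), and with the slide as a block the difference was 0.32 (adjusted p = 0.893). With the scan day as a block it was 0.98 (adjusted p = 0.164). Within the shared scan day it was 1.03 (3 arrays against 1).

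Flt4, the receptor of Vegfc on lymphatic endothelium, was higher in whole than in depleted cervix in NP rats. At probe 2 its level was -2.09, -2.40 and -2.12 in NP whole and -3.48, -3.40 and -3.40 in NP depleted cervix, where rat 7 was not well above background. The level was 2.33-fold higher in whole cervix (1.22, SE 0.31, adjusted p = 0.0103). The call was lost with the slide as a block (1.28, adjusted p = 0.0769), with array weights (1.14, adjusted p = 0.0889) and with normexp (0.83, adjusted p = 0.262). At D21 it was -2.41, -2.55 and -3.57 in whole and -2.61, -2.88 and -3.27 in depleted cervix, which overlapped, with a difference of 0.08 (95% interval -0.60 to 0.75). Flt4 probe 1 cleared background on 2 of 3 arrays in each whole group and on no depleted array, so it was not tested. Against the lowest signal detected on the depleted arrays, the mean of the whole arrays was 1.76-fold higher at D21 and 1.73-fold higher in NP. Each of these means includes an array that was not well above background, so neither ratio is a lower bound. Within the scan day that NP whole and depleted arrays shared (3 against 1), the differences of the 4 genes called in NP were 2.16 for Pgf, 1.96 for Vegfc, 1.2 for Flt4 and 0.99 for Kdr. Nrp1, measured by 10 spots of a single probe, was well above background on 5 of 12 arrays. Its levels ran from -4.20 to -3.14 in NP whole cervix (1 array above background), -4.93 to -4.33 in D21 whole (none), -5.11 to -4.30 in NP depleted (2) and -5.40 to -4.64 in D21 depleted cervix (2).

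The hypoxia factors differed from each other in pattern. Epas1, which is best known in endothelium, was high in D21 whole cervix and low elsewhere. Its level was 0.36, -0.28 and 0.36 in D21 whole rats 5, 6 and 7 and -1.90, -1.48 and -1.11 in NP whole rats 8, 9 and 10. It was -1.81, -1.68 and -2.84 in NP depleted rats 5, 6 and 7, with rat 7 not well above background, and -2.45, -2.05 and -1.60 in D21 depleted rats 1, 2 and 4. No D21 whole rat overlapped with any other rat, and the other 3 groups overlapped with their neighbours in the order of means. Epas1 was 3.13-fold higher in D21 than in NP whole cervix (1.65, SE 0.37, adjusted p = 0.0271) and 4.52-fold higher in D21 whole than in D21 depleted cervix (2.18, SE 0.37, adjusted p = 0.0032). In NP the depletion difference was 0.61 (SE 0.36, adjusted p = 0.224), and between the depleted groups D21 and NP differed by 0.08 (95% interval -0.72 to 0.88). The difference between the depletion values was 1.57 (SE 0.52) and was not called (adjusted p = 0.141); without D21 depleted rat 4 it was 1.78 (adjusted p = 0.0479).

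The Epas1 call between D21 and NP whole cervix was lost without NP whole rat 8 or 10 or any of the 3 D21 whole rats, with differences from 1.44 to 1.86 and adjusted p from 0.05 to 0.134. On the slide that held the 3 D21 whole arrays and 1 NP whole array, the difference was 1.26. Between D21 whole and depleted cervix, Epas1 was called without any 1 rat, and within the scan day that both groups shared the difference was 1.74 (3 arrays against 1). That call was lost with normexp (0.85, adjusted p = 0.237) and with the slide as a block (1.60, adjusted p = 0.476), although no slide held arrays of both groups. It was also lost in the study's own test after adjustment over all genes (adjusted p = 0.108).

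Hif1a had the largest SD within a group of the 10 genes, 1.34 in D21 depleted cervix. Its level was 2.29, 0.99 and 2.31 in NP whole rats 8, 9 and 10, 1.85, 1.81 and 1.43 in D21 whole rats 5, 6 and 7, 3.08, 1.49 and 3.20 in NP depleted rats 5, 6 and 7, and 0.56, -0.30 and 2.33 in D21 depleted rats 1, 2 and 4. All neighbouring groups overlapped and no difference was called. The D21 minus NP difference was -0.17 in whole cervix (95% interval -1.60 to 1.26) and -1.72 in depleted cervix (-3.15 to -0.30, adjusted p = 0.157). Without D21 depleted rat 4 the latter was -2.46 (adjusted p = 0.0154). With both depleted arrays of slide 2 left out (NP rat 7 and D21 rat 4), an alternative chosen after seeing the data, it was -2.15 (adjusted p = 0.0331) and the D21 depletion difference was 1.56 (adjusted p = 0.0447), against 0.83 and 0.364 with all rats. Within the shared scan day the D21 depletion difference of Hif1a was -0.64 (3 arrays against 1), the opposite sign.

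Of 9 partners and regulators of the hypoxia factors, 8 were on the array and 6 were tested in every comparison, and the single call was Egln3, an oxygen-sensing prolyl hydroxylase, lower in NP whole than in NP depleted cervix (-1.32, SE 0.42, adjusted p = 0.034). None was called in the other 3 comparisons or for the difference between the depletion values, and Hif3a was well above background on no array. The shares of all genes called are those given for the members above. Arnt, the shared partner subunit, is named here after its values were seen. It differed by 0.34 between D21 and NP whole cervix and by 1.88 between D21 whole and depleted cervix, neither past the threshold (adjusted p 0.806 and 0.0644).

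Of 19 genes known as targets of the hypoxia factors, none was called between D21 and NP whole cervix, where 5.82% of all genes were, and the median difference was 0.18. Between D21 whole and depleted cervix, 3 of 18 tested were called, all lower in whole cervix, where 22.4% of all genes were called. These were Adm, the vasodilator peptide adrenomedullin (-2.04, adjusted p = 0.0031), Ddit4, an inhibitor of mTOR signalling (-1.68, adjusted p = 0.0135), and the glycolytic enzyme Eno1 (-1.28, adjusted p = 0.0286). In NP, 3 of 18 were lower in whole cervix, among them the glucose transporter Slc2a1 (-2.44, adjusted p = 0.0011) and Ddit4 (-1.98, adjusted p = 0.0023), and 3 were higher, among them the collagen prolyl hydroxylase P4ha1 (1.54) and the mitophagy receptor Bnip3 (1.52). The 6 called of 18 stand against 32.8% of all genes. In depleted cervix, 2 of 17 were higher at D21 than in NP, Adm (1.52, adjusted p = 0.0273) and P4ha2, another collagen prolyl hydroxylase (1.44, adjusted p = 0.0217), where 4.59% of all genes were called. The median over the targets tested was -0.30 for whole minus depleted cervix at D21 and -0.71 in NP. Immediate-early genes were lower in whole cervix too, in the counts above, and their part in the differences of Vegfa and of these targets was not tested.

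**Figure D4:**
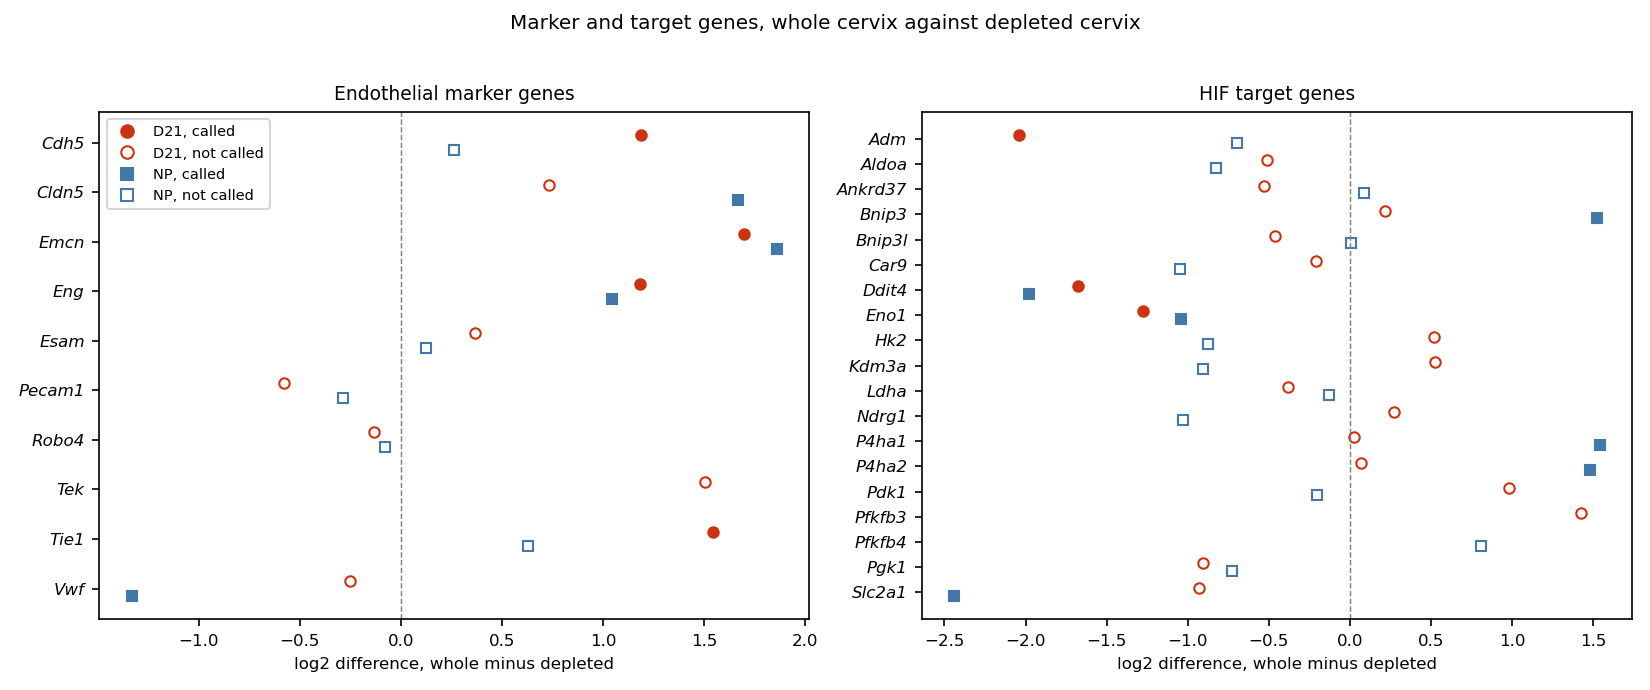
Log2 difference, whole minus depleted cervix (x axis), of the endothelial marker genes (left) and the HIF target genes (right), for D21 (red circles) and NP (blue squares). Filled points passed an adjusted p of 0.05, and genes not tested in a comparison have no point. Emcn and Eng lie to the right of 0 in both, and Ddit4 to the left in both.

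Other genes of VEGF and angiopoietin signalling came from a list of 17. Of these, 16 were on the array and 11 were tested between D21 and NP whole cervix, and Sema3f and Sema3c, semaphorins that bind neuropilins and plexins, were higher at D21 (1.50 and 1.05, adjusted p 0.0206 and 0.0456). Sema3c was also higher at D21 in depleted cervix (1.50, adjusted p = 0.0094), where Plcg1, an enzyme downstream of Kdr, was lower (-1.58, adjusted p = 0.0442). Between whole and depleted cervix at D21, the endothelial receptor Tie1 was higher in whole cervix (1.54, adjusted p = 0.0145), and Notch1 and Sema3f were lower (-2.18 and -1.56). Of 8 tested in NP, Notch1 and Sema3f were lower in whole cervix (-2.96 and -2.40), and none was higher. The shares of all genes called in these comparisons are those given for the members above. Vegfd, the other ligand of Flt4, was not tested in any comparison, and Angpt1 was well above background on no array.

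Endothelial markers were measured beside the receptors. None of 10 tested was called between D21 and NP whole cervix and none of 9 between D21 and NP depleted cervix, with medians of 0.17 and -0.43. Of all genes tested, 5.82% and 4.59% were called in these comparisons. A difference that is not called does not show that levels were alike. Between D21 whole and depleted cervix, 4 of 10 were higher in whole cervix: Emcn (1.70, adjusted p = 0.0039), Tie1 (1.54), Cdh5 (1.19, adjusted p = 0.0064) and Eng (1.18, adjusted p = 0.0159). In NP, Emcn, Cldn5 and Eng were higher in whole cervix (1.86, 1.67 and 1.05) and Vwf was lower (-1.33, adjusted p = 0.0229). The median over the list was 0.96 at D21 and 0.27 in NP, and the list's summed level was 11.5 to 14 in D21 whole, 8.21 to 15.9 in D21 depleted, 11.7 to 16.1 in NP whole and 9.18 to 12 in NP depleted cervix. Of lymphatic markers, Lyve1, which tissue Mφs also carry, was higher in whole cervix at D21 and in NP (4.79 and 3.95), with Mmrn1 at D21 (2.76) and Ccl21 in NP (1.85), and Prox1, the defining transcription factor, was well above background on no array. Of 6 pericyte markers, 3 were higher and 1 lower in whole cervix at D21, and 4 higher and 1 lower in NP. Pdgfrb was, like Pgf at probe 1, called for the difference between the depletion values (-2.92, adjusted p = 0.0036), as were 7 of 10 fibroblast markers and 4 of 9 smooth muscle markers, all in the same direction. Of all genes tested, 1.95% were called lower and 0.439% higher for that difference. In the depletion comparisons 11.9% were higher and 10.5% lower at D21, and 17% and 15.8% in NP. The Pgf call was lost in the settings named above. The part of these cell types in the differences of the members was not tested.

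Over the 10919 genes well above background on all 12 arrays, likeness to a member was taken as Pearson's correlation of log2 levels over the 12 arrays, which share the 4 groups and the slides. The named genes most like Vegfa were Zfp410 (r = 0.967), Polk (0.962) and Hoxa5 (0.952). Those most like Pgf were Smarcd3 (0.974) and Smoc2 (0.967), with a transcript of no gene symbol between them (0.971). Flt1 was most like a probe of no gene name (0.944), Scarb2 (0.919) and Slco2a1 (0.917), and Kdr most like Dap (0.943), a probe of no gene name (0.941) and Igfbp6 (0.932). Hif1a was most like Cask (0.971), a probe of no gene name (0.962) and Qsox2 (0.955). Vegfb, Vegfc, Flt4, Nrp1 and Epas1 were not well above background on all arrays and were not compared in this way.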

How the data were processed

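Groups and rat numbers came from the labels. The members and gene lists were chosen with earlier results of these data known. The authors deposited scanner intensity values from Agilent Feature Extraction 9.5.3.1, background-subtracted and not yet scaled between arrays. A second table, also deposited, holds each intensity as a ratio to the array's 75th percentile and was an alternative. Spots flagged as outliers were left out, spots of a probe were averaged, and log2 of each array's 75th percentile was subtracted. Gene names are those of the array files; 57.1% of probes matched RefSeq by accession. The brightest probe stood for a gene. All 12 arrays were fitted with 4 group means in limma 3.58.1 (R 4.3.3). The simulated data on which this fit was tested had independent noise and no slide or scan-day effects. That test therefore does not cover such effects. Genes named from the pathway lists were up to 4 per list and comparison, those with the largest difference among the called. Nothing states that rats of a group were housed or processed apart. The limma p-values measure the spread between the arrays of these rats within groups, pooled over the 4 groups. That spread also holds differences between slides and scan days where a group's arrays lay on different ones. Weights per array ran from 0.209 (NP depleted rat 7) to 4.41 (D21 whole rat 7), so the spread was not equal between arrays. Slides were not spread evenly over the groups. All D21 whole arrays were on slide 4, and the D21 depleted arrays of rats 1, 2 and 4 were on slides 3, 1 and 2. Alternatives were the methods' t-test (Welch) with an unadjusted p under 0.01 and 2-fold or with adjustment, that threshold in limma, normexp (offset 50), quantile normalization, a percentile over probes well above background on all arrays, other background filters, other rules for probes, blocks of slide or of scan day, weights per array, the authors' table, and leaving out rats. Precision is limited by the number of arrays. The sequence and position of Vegfa probe 1 are not reported here.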

Additional observations from a re-analysis of the deposited data

Results flagged for a closer look

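The whole minus depleted difference of Pgf differed between D21 and NP rats at probe 1, by -1.99 on the log2 scale (limma, adjusted p = 0.0444), with 0.32 at D21 and 2.31 in NP. This difference was called in 10 of 26 alternative settings, and 11 of the settings that left out 1 rat lost the call. At probe 2 no NP depleted array was well above background, so that the NP value there is a bound. The limma fit of probe 2 gave -1.17 for the difference between D21 and NP (SE 0.56, adjusted p = 0.278), which was not called.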

How the results depend on the processing

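Over 29 settings, 1283 values of single members were recomputed: 101 lost a call, 26 gained 1, 1156 did neither and none of the called values changed sign, while 34 values changed sign with neither value called. In the order D21 against NP in whole cervix, whole against depleted at D21, the same in NP, D21 against NP in depleted cervix, and the difference between the depletion values, the main counts of members called were 1, 3, 4, 2 and 1. Leaving out 1 rat moved them to 0 to 2, 1 to 3, 3 to 6, 0 to 4 and 0 to 3. The methods' t-test with Benjamini-Hochberg adjustment gave 0, 0, 2 and 0 members in the first 4 (limma at an unadjusted p under 0.01 with 2-fold gave 1, 3, 4, 2 and 2), and without adjustment 0 in depleted cervix. With only the compared arrays in the fit, 3 were called in whole and 0 in depleted cervix. Normexp gave 0, 0, 1, 0 and 0, and no background filter gave 0 in whole cervix, 1 at D21, 0 in depleted cervix and 0 for the last. Requiring every array above background gave 2 in NP and 1 in depleted cervix. Slide as a block gave 0 in whole cervix, 0 at D21, 1 in depleted cervix and 0 for the last, scan day as a block 1 at D21, 1 in depleted cervix and 0, and slide as a random block (correlation 0.457) 0 in whole cervix and 1 at D21. Array weights gave 3 in whole cervix and 2 for the last, and the mean of all probes 1 in depleted cervix and 0 for the last. Quantile normalization, the percentile over probes detected everywhere, every probe as its own feature and the authors' values each gave 1 in depleted cervix. In NP, slide as a block, no background filter and array weights each gave 3; with the slide block Kdr and Flt4 lost the call and Vegfb gained it. With both depleted arrays of slide 2 left out, chosen after seeing the data, 4 were called in depleted cervix and 3 for the last. No share of all genes was taken under these settings, so a changed count does not set the members apart from other genes. The cause of these changes was not tested.

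The percentile over probes detected everywhere moved the median of all genes to 0.13 for depletion at D21 and -0.14 in depleted cervix, from -0.06 and 0.02. The pathway and marker lists were fitted in the main setting alone. The t-test and the fit of compared arrays alone were not run for the difference between the depletion values. In exact permutation tests of 20 pairs of member and factor, 0 passed an adjusted p under 0.05 and 11 had an unadjusted p under 0.05. Kdr (pregnancy) and Vegfa (depletion) had the smallest p possible in the exact permutation test, 0.005. The 11 include both pairs of Nrp1, which was not tested in the main fit because its probe cleared background on all arrays of no group. No share of all genes stands beside the 11 of 20, so this count does not set the members apart from other genes. No paired analysis was possible because the groups compared share no rat numbers.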
